A study of Mus musculus with 8 samples.

Results

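Motile cilia are the beating hairs that ependymal cells, the lining of the brain ventricles, use to move cerebrospinal fluid. Each holds an axoneme, a ring of microtubule doublets around a central pair, with dynein arms that drive the beat and radial spokes that link the doublets to the centre. Foxj1 is the transcription factor that switches on the genes for building such cilia, and RFX factors such as Rfx3 share many of its target genes by binding a palindromic DNA site, the X-box. In striatal tissue that borders the lateral ventricle, RNA of many of the genes for building such cilia is known mainly from ependymal cells.

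The 10 genes described here are the regulators Foxj1 and Rfx3, the axonemal genes Rsph1, Spag6, Hydin, Tekt1, Dynlrb2, Dnah5 and Dnah11, and Mlf1, which encodes myeloid leukemia factor 1. They were chosen by name, with their covariation and the genotype difference in these samples already known, so that both are given as descriptions with no test of their own. The array held 15 probes for the 10 genes, of 39429 probes for 24324 named genes in all. Of these, 13 probes for 8 genes carried the name in the files, and Dnah5 and Dnah11, listed there as Dnahc5 and Dnahc11, gave 1 probe each through their accessions. The probe listed as Spag6 lies on chromosome 16 and its RefSeq symbol is now Spag6l. The 2 probes on chromosome 2 whose symbol is now Spag6, listed in the files as BC061194, were well above background in 0 and 1 of the 8 samples and were not counted among the 15.

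Total RNA came from the striatum of 8 adult male mice on a C57Bl/6j background, backcrossed for 7 generations and born to heterozygous parents. The 4 wildtype mice and the 4 mice heterozygous for a gene trap in Brd2 (Brd2+/-), which encodes a bromodomain reader of acetylated histones, were each measured in 1 channel of a 2-colour Agilent array. Each of the 4 arrays, all on 1 slide, held 2 mice of the same genotype, and replicates 1 and 3 carried Cy3 while replicates 2 and 4 carried Cy5. The wildtype mice are called W1 to W4 and the heterozygous mice H1 to H4 below, with W1 and W2, W3 and W4, H1 and H2, and H3 and H4 sharing an array.

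Between 16398 (H3) and 24867 (H2) probes per sample stood well above background, the median spot was 3.72 to 10.5 times as bright as its local background, and 0 spots were saturated. The number of arrays, 2 per genotype, limits the precision of every difference. The labels give the tissue as striatum, but a description field speaks of the left atrium of the heart. Markers of striatal projection neurons passed the background test in every sample for 16 of 23 genes, and those of atrial heart muscle for 2 of 14. The targeted gene did not read lower in the mice labelled heterozygous. Its brighter probe read 10.77 to 12.02 log2 units in wildtype mice and 11.68 to 11.83 in those labelled heterozygous, and its dimmer probe 6.90 to 7.39 against 7.75 to 8.16. Neither probe is known here to lie in the part lost through the trap, and each direction below rests on the labels.

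Probes of 60 bases carried the measurement, and 5 of them are shown because the results turn on them and because each holds an open reading frame. The capitals mark the codons of the first frame with no stop codon. Coordinates are those of the files, on mm9, for which no annotation was used here, so exons are not assigned. The first, the dimmer of the pair for Rsph1, a protein of the radial spoke head, lies at chr17:31410354-31410515 on the minus strand and spans more of the genome than its own length. The 2 Hydin probes, for a giant central pair protein, lie on the plus strand at chr8:113133873-113133932 (the one that was measured) and chr8:112878891-112878950 (the one that was dark). The probe of Tekt1, a filament protein of the doublet microtubules, lies at chr11:72158314-72158373 and that of Rfx3 at chr19:27900579-27900638, both on the minus strand.
Rsph1 A_51_P373901: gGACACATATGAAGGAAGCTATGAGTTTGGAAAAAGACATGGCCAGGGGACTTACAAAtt
Hydin A_51_P326043: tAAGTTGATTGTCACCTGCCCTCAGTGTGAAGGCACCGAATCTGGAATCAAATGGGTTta
Hydin A_66_P101360: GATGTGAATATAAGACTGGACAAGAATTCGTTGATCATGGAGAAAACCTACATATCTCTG
Tekt1 A_55_P2111990: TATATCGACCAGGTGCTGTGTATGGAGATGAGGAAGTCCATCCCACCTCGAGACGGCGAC
Rfx3 A_51_P161207: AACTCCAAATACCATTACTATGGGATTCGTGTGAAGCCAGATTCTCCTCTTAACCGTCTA

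Of the 15 probes, 10 probes of 8 genes passed the background test in 4 samples or more and entered the comparison of the genotypes. The 5 others, for Rfx3, Dnah5 and part of Hydin, are described after them. Because a probe could pass through the samples in which it was bright, the 10 are not a fair sample of the 15.

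Foxj1 varied most among the wildtype mice. Its probe (chr11:116192214-116192273, minus strand) was well above background in all 8 samples and read 8.37, 9.73, 10.46 and 11.23 log2 units in W1 to W4 and 9.65, 9.33, 9.15 and 9.07 in H1 to H4. The lowest and the highest mouse were both wildtype, 7.24-fold apart, and all heterozygous mice lay between them. The mean was 9.95 ± 1.21 in wildtype and 9.30 ± 0.26 in heterozygous mice (SD, n = 4 each), a difference of -0.65 log2 units (SE 0.84, 95% interval -2.55 to 1.25).

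The radial spoke gene Rsph1 was read by 2 probes that agreed on the order of W1 to W4. The brighter probe, A_55_P2044684 (chr17:31391969-31392028, minus strand), read 7.97, 9.61, 9.76 and 10.24 in the wildtype mice and 8.03, 8.08, 8.49 and 8.42 in the heterozygous mice. W1 lay with the heterozygous mice and just below all of them, and W2, W3 and W4 lay above them. The difference was -1.14 (SE 0.78, 95% interval -2.90 to 0.63), the widest of the 10. The dimmer probe, A_51_P373901, read 6.57, 7.37, 7.48 and 7.81 against 7.10, 6.96, 6.85 and 6.98, a difference of -0.34 (SE 0.44), and was not well above background in W1 and H3.

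The central pair genes Hydin and Spag6 differed in how the mice were placed. Hydin, by probe A_51_P326043, read 7.00, 7.94, 8.13 and 8.53 in the wildtype mice and 7.12, 7.19, 6.99 and 7.06 in the heterozygous mice, a difference of -0.81 (SE 0.47, 95% interval -1.87 to 0.25). W1 read at the level of the heterozygous mice and the other 3 wildtype mice above it, while W1 and H3 were not well above background. Spag6 (chr16:16753406-16753465, minus strand), whose protein is an armadillo repeat component of the central pair, read 7.89, 8.66, 8.34 and 8.51 in wildtype and 8.52, 8.49, 7.67 and 7.59 in heterozygous mice. It was the only one of the 10 with a larger SD in heterozygous than in wildtype mice, 0.51 against 0.33, because H3 and H4, which shared an array, read lower than H1 and H2. The difference was -0.28 (SE 0.45).

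Tekt1 was read by 2 probes that start 83 bases apart. Probe A_55_P2111990 read 7.58, 9.20, 9.49 and 10.25 in W1 to W4 and 8.45, 8.30, 8.72 and 8.40 in H1 to H4, a difference of -0.66 (SE 0.89). Probe A_55_P2132024 (chr11:72158231-72158290, minus strand) read 7.05, 8.44, 8.36 and 8.92 against 8.08, 7.73, 8.49 and 8.14, a difference of -0.09 (SE 0.80). The second probe was not well above background in W1. On both, W1 was the lowest and W4 the highest of all 8 mice, and the heterozygous mice lay close together inside that range.

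Dynlrb2 encodes a roadblock-type dynein light chain. Its probe (chr8:119039711-119039770, plus strand) was well above background in all 8 samples and read 7.59, 9.55, 9.41 and 10.40 in the wildtype mice and 8.87, 8.86, 9.17 and 9.04 in the heterozygous mice. The wildtype SD was 1.18 and the heterozygous SD 0.15, with W1 and W4, which carried different dyes, 7.00-fold apart. The genotype difference of -0.25 (SE 0.95, 95% interval -2.40 to 1.89) was small beside that spread.

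Dnah11, an outer arm dynein heavy chain (chr12:119116456-119116515, minus strand), was well above background in 4 samples, 3 wildtype and 1 heterozygous. It read 6.40, 7.24, 7.58 and 8.06 in the wildtype mice and 6.35, 6.15, 7.65 and 6.85 in the heterozygous mice, a difference of -0.57 (SE 0.76). Mlf1 (chr3:67203684-67203743, plus strand) was well above background in 5 samples and read 6.31, 7.31, 7.14 and 7.14 against 6.83, 6.74, 7.36 and 7.10. Its difference of 0.03 (SE 0.56) was the only one of the 10 above 0, and W1 lay below the other 3 wildtype mice, which read alike.

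**Figure D1:**
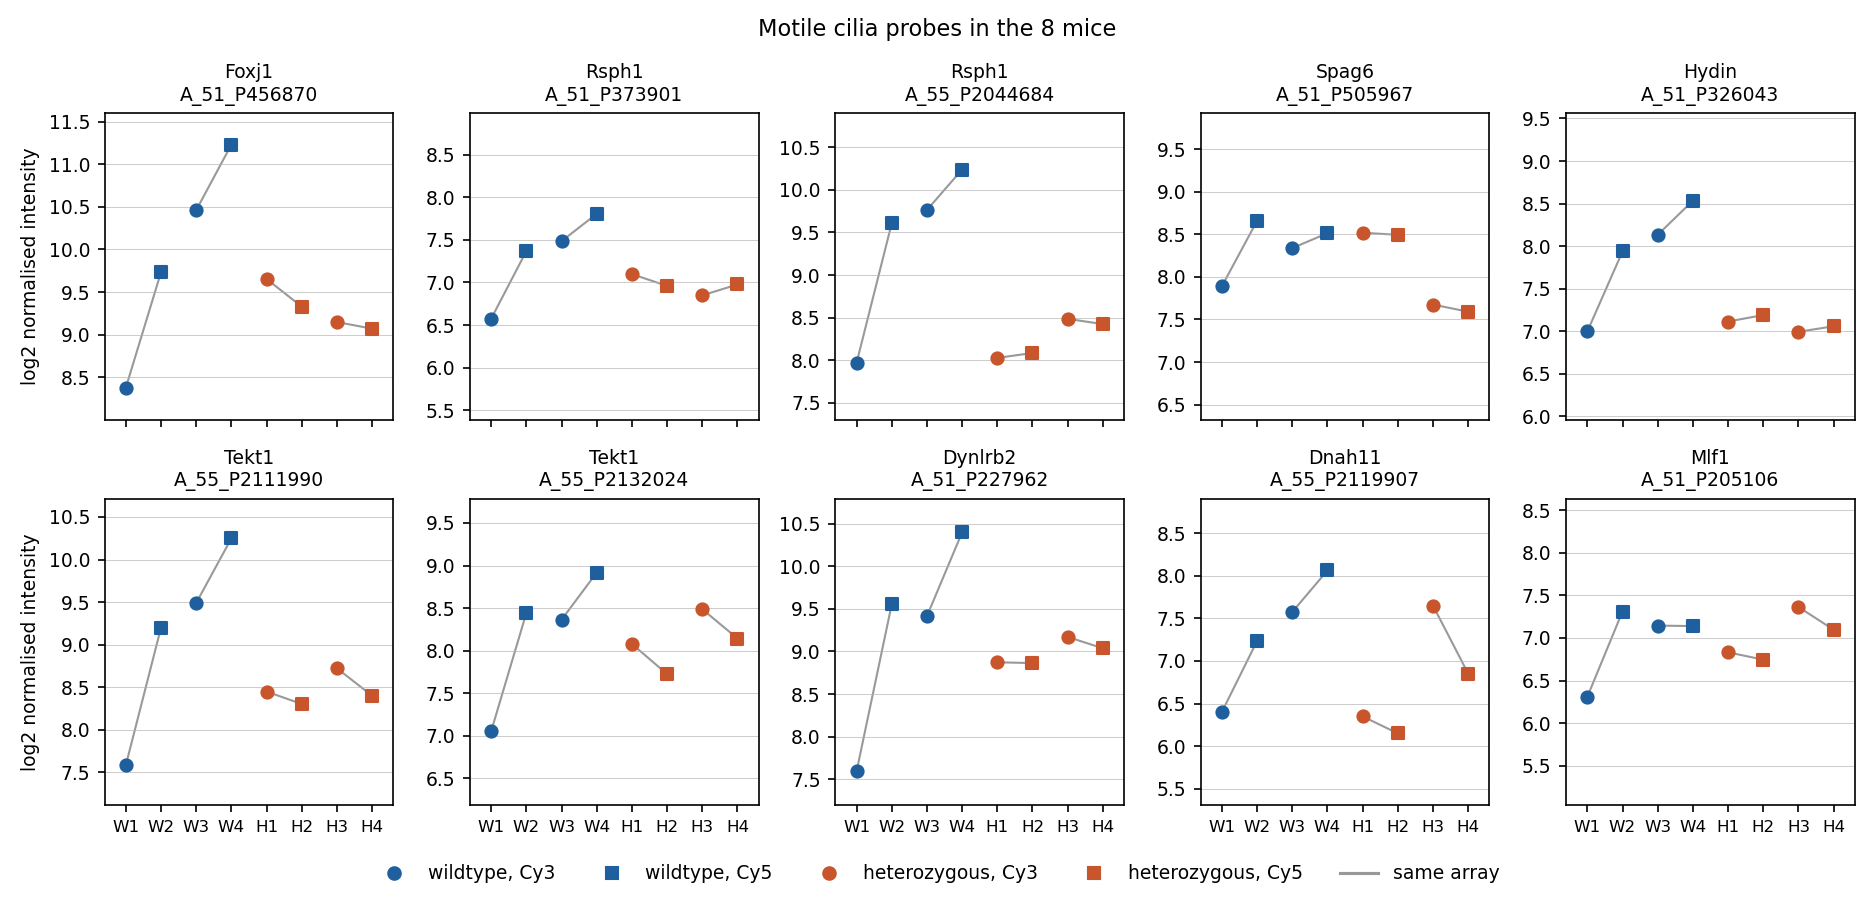
Log2 normalised intensity (vertical axis, each panel spanning the same number of log2 units) of the 10 measured probes in the 8 mice (horizontal axis), with circles for Cy3, squares for Cy5, blue for wildtype, orange for heterozygous and grey lines joining the mice of 1 array. Foxj1 runs from 8.37 in W1 to 11.23 in W4, while its heterozygous values stay between 9.07 and 9.65.

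Comparing the genotypes, 9 of the 10 probes read lower in heterozygous mice, where 52.4% of all 18398 tested probes did, and the median difference was -0.45 against -0.02 over all of them. None of the 10 was called by limma at an adjusted p of 0.05 (Benjamini-Hochberg over all tested probes), where 0% of all probes were called, and their adjusted p-values ran from 0.75 to 1.00. The lowest adjusted p on the array was 0.43. At an unadjusted p under 0.05 the 10 gave 0 probes, where 8.04% of all probes (1479) passed. In 0 of the 10 did the genotypes fail to overlap, where 17% of all probes did so, which is below that background. The contrast was among the values that chose the genes, so these counts support nothing beyond themselves, and in bulk tissue fewer cells of a type and less RNA per cell cannot be told apart.

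Genotype changed from array to array and never within one. The standard errors allow for the correlation of mice that share an array, but the degrees of freedom count mice rather than arrays, so the intervals can still be too short. The direction depended on the array of W3 and W4. Without it 5 of 10 probes read lower and the median difference was 0.04, and without the array of W1 and W2 all 10 read lower with a median of -0.98. Leaving out W1 and W4 together, which stood apart for other cell type markers, gave 10 of 10 lower and a median of -0.58.

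**Figure D2:**
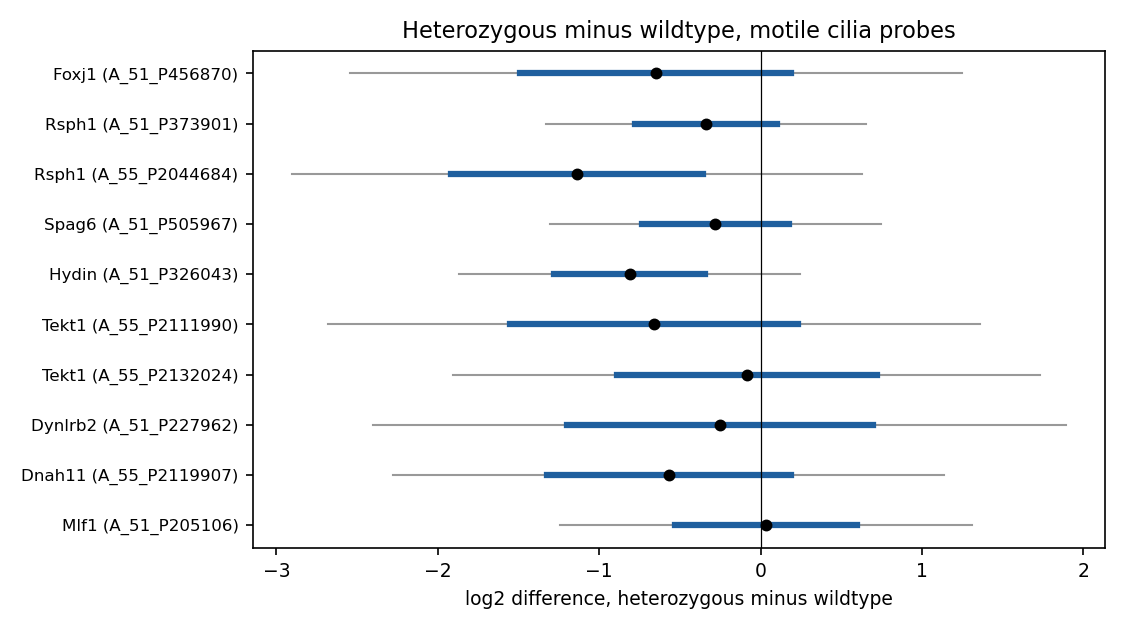
Heterozygous minus wildtype difference in log2 units (horizontal axis) for each of the 10 measured probes (rows), with points for the estimate, thick bars for 1 SE and thin lines for the 95% interval of the limma fit. Each of the intervals crosses 0, from the Rsph1 probe at -1.14 to Mlf1 at 0.03.

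The wildtype SD exceeded the heterozygous SD in 9 of 10 probes, where 56.2% of all tested probes did, with a median SD of 0.75 against 0.25. Over all tested probes the medians were 0.27 and 0.24. W1 was the lowest of the 8 mice in 7 of the 10 probes and W4 the highest in 8. Relative to the mean of the same dye, the median of the 10 probes lay at -0.60 in W1, 0.16 in W2, 0.62 in W3 and 0.89 in W4, and at 0.00, -0.55, 0.04 and -0.52 in H1 to H4.

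Part of this spread lay between the 2 mice of a single array, which shared their hybridisation. In the array of W1 and W2, all 10 probes read higher in W2, by 0.77 to 1.96 log2 units with a median of 1.18, and all 10 lay above 0.60, the upper end of the range that held the middle 95% of all tested probes. Dynlrb2 was 3.90-fold higher in W2, the brighter Rsph1 probe 3.12-fold, the first Tekt1 probe 3.06-fold and Foxj1 2.56-fold. For 5 of the 10, the dimmer Rsph1 probe, Hydin, the second Tekt1 probe, Dnah11 and Mlf1, W1 was not well above background, so that their log2 differences, 1.39 for the second Tekt1 probe and 1.00 for Mlf1 among them, do not give a measured fold. By the values as they stand 6 of the 10 were at least 2-fold higher in W2, where 0.647% of all tested probes were, and 4 of these 6 were well above background in both mice.

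The array of W3 and W4 gave a smaller difference in the same direction of dye, with W4 higher in 9 of 10 probes by a median of 0.48. In it 3 of the 10 lay above the upper end of that range, 0.70, and 0 reached 2-fold, where 0.837% of all probes did. In the heterozygous arrays the Cy5 mouse was higher in 2 of 10 probes each, with medians of -0.11 in both, and 0 of the 10 were 2-fold higher where 0.114% and 0.163% of all probes were. Mouse and dye cannot be told apart within 1 array, and the 4 arrays carried the dyes the same way round, so that the wildtype and the heterozygous pairs differed in sign under the same dyes.

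**Figure D3:**
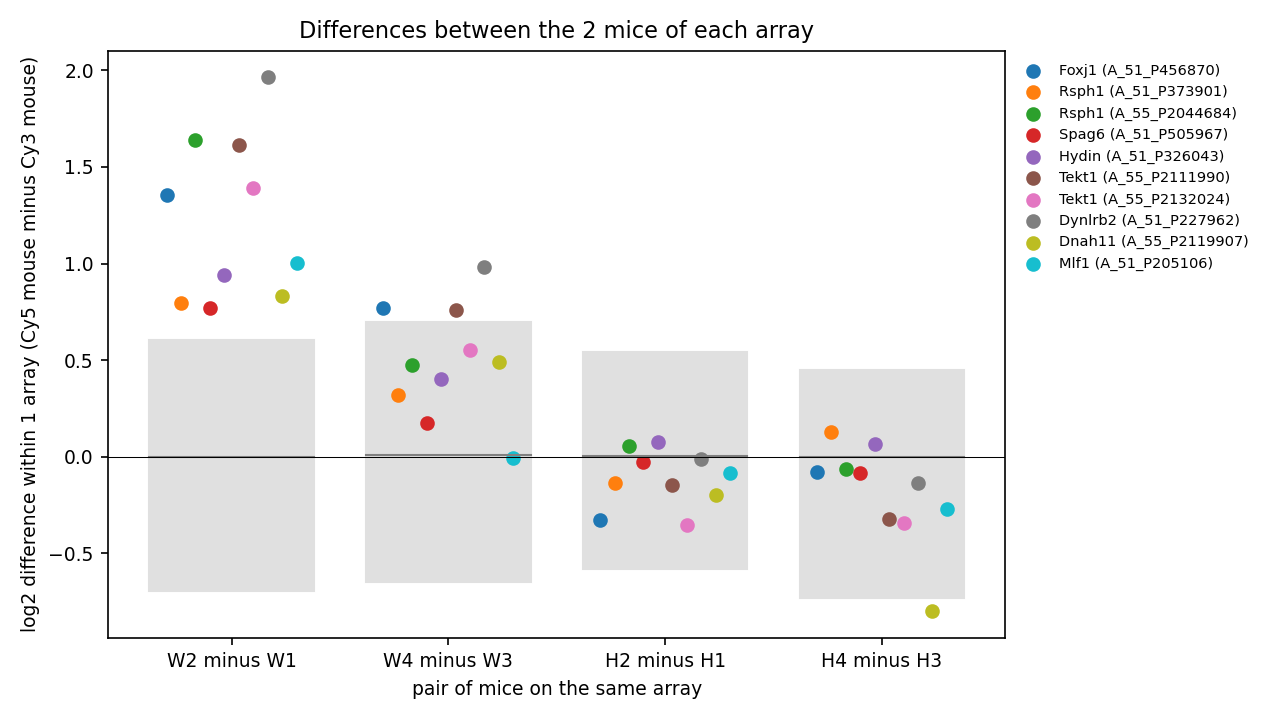
Log2 difference between the Cy5 and the Cy3 mouse (vertical axis) for the 10 measured probes in each of the 4 arrays (horizontal axis), with grey boxes over the middle 95% of all 18398 tested probes and a line at their median. All 10 points lie above the box in the array of W1 and W2, and medians are 1.18, 0.48, -0.11 and -0.11 from left to right.

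The 5 probes that did not enter the comparison differed among themselves. Dnah5, the outer arm heavy chain whose loss is a known cause of immotile cilia (chr15:28401496-28401555, plus strand), was well above background in 1 wildtype sample and in 0 heterozygous ones. It read 6.01, 6.75, 6.40 and 7.07 in W1 to W4 and 6.38, 6.49, 6.33 and 6.62 in H1 to H4, again lowest in W1 and highest in W4. The second Hydin probe, A_66_P101360, read between 5.89 and 6.39 and was not well above background in any sample. Both Hydin probes match the gene by accession, and the measured one starts at base 15502 of the transcript and the dark one at base 1139.

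The 3 probes of Rfx3, the X-box factor, were well above background in 0, 2 and 1 of the 8 samples. Their means were 6.39, 6.68 and 6.53 in wildtype and 6.45, 6.69 and 6.66 in heterozygous mice, and they start at bases 938, 2461 and 6398 of the transcript. In the array of W1 and W2 they differed by -0.14, 0.05 and 0.02, with no difference like that of Foxj1. At that signal the array set only an upper bound on Rfx3, and a low level was not distinguishable from background.

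Covariation with Foxj1 was described on values from which the mean of each dye had been subtracted. Pearson's r with Foxj1 over the 8 mice was 0.98 and 0.85 for the Rsph1 probes, 0.95 and 0.78 for the Tekt1 probes, 0.90 for Hydin, 0.90 for Dynlrb2, 0.69 for Dnah11, 0.57 for Spag6 and 0.47 for Mlf1. Spearman's rho ran from 0.48 for Mlf1 to 0.98 for the dimmer Rsph1 probe. The median of the 9 was 0.85, against 0.03 over all other tested probes, whose quartiles were -0.50 and 0.47. An r of at least 0.9 was reached by 3 of the 9, where 1.65% of all probes did, and of at least 0.5 by 8 of the 9, where 23.3% did. The 8 points share 4 arrays, and the r values were among those that chose the genes.

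Among the dim probes r with Foxj1 was 0.91 for Dnah5, -0.15 for the dark Hydin probe and 0.48, -0.55 and 0.39 for Rfx3. Over the 45 pairs of the 10 measured probes r had a median of 0.79 and ran from -0.03 to 0.98. W3 and W4 were the 2 mice farthest from the median of Foxj1 once each dye's mean was subtracted. Without them the median r with Foxj1 over 6 mice was 0.66, with 0.94 for the dimmer Rsph1 probe, 0.83 for Dynlrb2 and 0.19 for Dnah11. Without W1 and W4 the median was 0.67, with 0.96 for the dimmer Rsph1 probe and 0.94 for Hydin. For Dnah11, the second Tekt1 probe and Mlf1 r was then 0.18, 0.13 and -0.01. Without W3 and W4 the second Tekt1 probe and Mlf1 kept an r of 0.72 and 0.57. The r of Dnah11 thus fell with either pair left out, and that of the second Tekt1 probe and Mlf1 without W1 and W4. Other probes depended on these mice too. Without W3 and W4 r was 0.42 for the brighter Rsph1 probe and 0.54 for Hydin. Without W1 and W4 it was 0.59 for Dynlrb2. For Spag6 r did not fall, at 0.66 without W3 and W4 and 0.67 without W1 and W4.

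Outside the 10 genes, those with the highest r with Foxj1 included Myo1a, 1700010I14Rik, Cfap65, Csrp2, Nudt13, Gm9856, Cfap70, Npm2 and 1700034P13Rik, at 0.98 to 0.99 over the 8 mice. Of the genes named, Cfap70, of the central pair, was on the lists of cilia genes. Size and likeness did not go together. Cfap65, a cilia and flagella associated protein, read 6.09, 6.84, 7.60 and 8.36 in W1 to W4, and Csrp2, a LIM domain protein, 9.32, 10.37, 10.87 and 11.54, whereas Myo1a, at an r of 0.99, spanned only 0.62 log2 units over all 8 mice. In the array of W1 and W2, Csrp2 differed by 1.05 and Cfap70 by 0.82, but Nudt13 by -0.17.

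**Figure D4:**
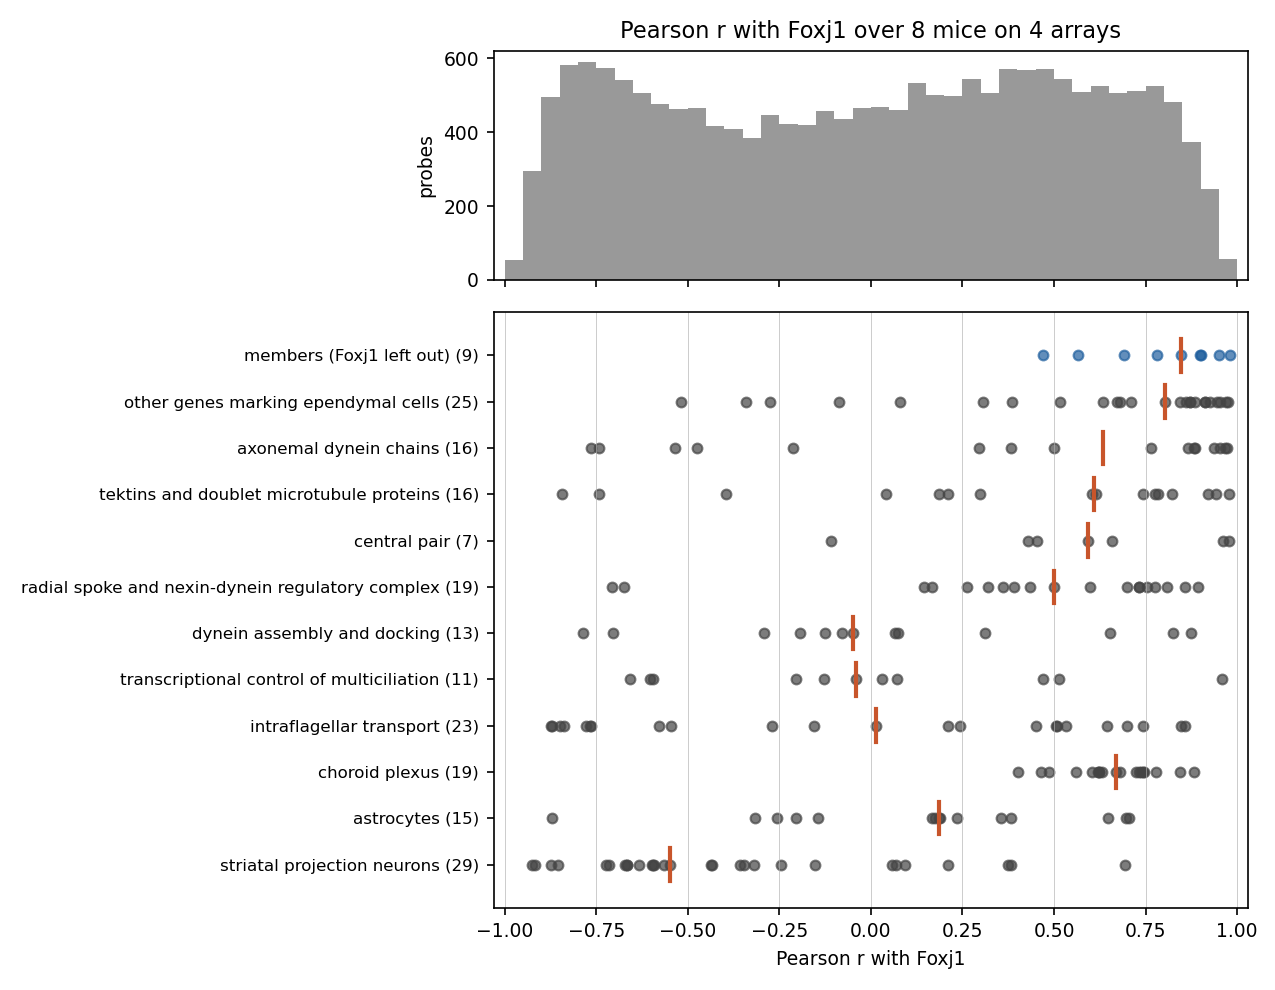
Pearson r with Foxj1 over 8 mice on 4 arrays (horizontal axis), as a histogram of all other tested probes (top, number of probes) and as points for single probes of the genes described and of 11 gene lists, with the number of probes in brackets and the median as an orange bar (bottom). The median is 0.85 for the 9 probes, 0.80 for other ependymal marker genes, 0.01 for intraflagellar transport and -0.55 for striatal projection neurons.

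Other genes that mark ependymal cells were also lowest in W1 by their median. Of 24 such genes on the array, 20 had tested probes (25 probes), of which 21 read lower and 4 higher in heterozygous mice, with a median of -0.41 and 0 called in either direction. Their median r with Foxj1 was 0.80, and in the array of W1 and W2 they differed by a median of 0.89. Rarres2, the precursor of the chemoattractant chemerin, read 9.83, 11.82, 11.37 and 11.82 in the wildtype mice and 10.59 to 10.79 in the heterozygous mice. Tppp3, a tubulin polymerization promoting protein, read 10.47, 11.30, 11.38 and 11.79 against 10.68 to 10.99. Iqcd, on the same list, did not share the pattern and read 11.55, 12.01, 11.66 and 11.91 in the wildtype mice. Fam183b and Tmem212, named after their values were seen, were lowest in W1 at 8.29 and 6.07 and highest in W4 at 11.47 and 9.11. Tmem212 was well above background in 6 of 8 samples and read 9.08 in W2. Of the 25 probes, 18 had an r of at least 0.5 with Foxj1. Others of the list differed, with Ccdc153 highest in W2 (10.93, against 9.77 in W4). For Morn2 and a Kif9 probe r was -0.34 and -0.52.

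The axonemal lists were mixed. Axonemal dynein chains other than Dnah5 and Dnah11 had 16 tested probes, 9 lower and 7 higher in heterozygous mice, with a median r of 0.63 and a median difference of 0.50 between W2 and W1. Wdr78, of the inner arm dyneins, read 9.21 in W1, 9.78 in W2 and 10.41 in W4 by its brighter probe. The other Wdr78 probe was not well above background in any sample. Dnal4, another of the list, read 10.85, 11.02 and 10.39 in the same mice. Tektins and other doublet proteins had 16 tested probes, 12 lower and 4 higher, with a median r of 0.61 and 0.73 between W2 and W1. In that list Tekt4 read 8.32, 8.97, 9.11 and 9.39 in the wildtype mice and 7.87 to 8.21 in the heterozygous mice, a difference of -0.89 (SE 0.42) that limma did not call (adjusted p = 0.66).

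Central pair genes had 7 tested probes, 5 lower and 2 higher, with a median r of 0.59. Spef1, a microtubule-bundling protein, read 9.39, 9.79, 10.27 and 10.50 in W1 to W4 (r of 0.96). Spef2, the brightest of the list, went another way by its brighter probe. That probe read 14.44, 13.21, 14.04 and 14.13 in W1 to W4, with an r of -0.11. The dimmer Spef2 probe had an r of 0.66. Radial spoke and nexin-dynein regulatory complex genes had 19 tested probes, 17 lower and 2 higher, with a median r of 0.50 but a median difference of only 0.32 between W2 and W1. Rsph3b, another spoke protein, read 11.84 to 11.96 in wildtype and 11.12 to 11.54 in heterozygous mice, a difference of -0.61 (SE 0.24, limma adjusted p = 0.58) with W1 level with the other wildtype mice. In each of these lists 0 probes were called in either direction, as on the whole array.

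A further 3 lists, for intraflagellar transport, for dynein assembly and docking and for transcriptional control, had a median r with Foxj1 near that of all probes. Intraflagellar transport, which non-motile cilia also need, had 23 tested probes with a median r of 0.01 and a median difference of -0.02 between W2 and W1. Dynein assembly and docking factors, which serve the dynein arms of motile cilia, had 13 tested probes with a median r of -0.05. Their single probes ran from -0.79 for Dnaaf2 to 0.87 for Dnaaf3. Of 13 genes of the transcriptional control of multiciliation, 10 had tested probes (11 probes, 5 lower and 6 higher in heterozygous mice), with a median r of -0.04. Mcidas, a coregulator of multiciliated cell fate, read 15.54 to 16.10 in all 8 mice and Gmnc was not well above background in any. The only Mcidas probe thus read near the mean of Penk (16.09), a striatal projection neuron gene. Whether that probe reads Mcidas RNA alone was not tested. Myb, named after its values were seen, had an r of 0.96 and read 6.09, 7.29, 7.21 and 7.69 in W1 to W4. Its probe was well above background in only 4 of the 8 samples. Among close relatives of the 10 genes, Dynlrb1, the paralog of Dynlrb2, read 14.54, 14.32, 14.62 and 14.69 in the wildtype mice, and in the array of W1 and W2 it ran against Dynlrb2.

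The promoters were searched for the motifs of RFX and forkhead factors. RefSeq sequence (GRCm38.p6) of the 250 bases before the start was found for 8 of the 10 genes (Spag6l for Spag6), and Foxj1 and Rsph1 had no entry in the table. An X-box, searched on both strands by its consensus, lay at positions -51 to -39 from the start of Dynlrb2 and -21 to -8 from that of Hydin. It was found in 2 of 8 genes, in 13 of 89 other motile cilia genes (14.6%) and in 1.49% of all 27025 genes in the table. The shorter motif GTTGCC, searched on both strands, was found in Hydin, Dynlrb2, Tekt1 and Mlf1, in 36% of the other motile cilia genes and in 11.8% of all genes, and it lies within both X-box matches. A forkhead core, TGTTTAC, was found only in Mlf1 of the 8, and in 3.54% of all genes. The 3 promoters below are those with an X-box and that of Tekt1, which holds 2 of the shorter motifs, with these matches in capitals. They lie at chr8:110266727-110266976 (Hydin, plus strand), chr8:116504765-116505014 (Dynlrb2, plus strand) and chr11:72361883-72362132 (Tekt1, minus strand).
Hydin: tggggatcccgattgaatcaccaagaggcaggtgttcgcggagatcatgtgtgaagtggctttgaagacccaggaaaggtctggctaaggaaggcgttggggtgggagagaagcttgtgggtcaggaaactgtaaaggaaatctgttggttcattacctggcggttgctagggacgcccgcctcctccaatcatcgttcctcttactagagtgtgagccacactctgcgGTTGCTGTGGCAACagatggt
Dynlrb2: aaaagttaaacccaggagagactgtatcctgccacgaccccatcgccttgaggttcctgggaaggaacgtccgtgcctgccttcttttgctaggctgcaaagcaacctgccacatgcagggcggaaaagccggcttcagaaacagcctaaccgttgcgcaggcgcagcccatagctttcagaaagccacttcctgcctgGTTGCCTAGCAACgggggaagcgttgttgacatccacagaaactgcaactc
Tekt1: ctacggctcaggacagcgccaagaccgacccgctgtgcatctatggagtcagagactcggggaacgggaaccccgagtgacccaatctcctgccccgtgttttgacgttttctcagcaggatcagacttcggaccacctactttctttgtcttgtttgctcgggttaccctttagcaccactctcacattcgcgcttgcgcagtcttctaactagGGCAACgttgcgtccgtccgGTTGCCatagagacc
A match is a description of the letters and not of binding. The r with Foxj1 was 0.90 for Hydin and for Dynlrb2, where an X-box was found, and 0.95 for the first Tekt1 probe, where none was found in this window. A second Tekt1 entry in the table held none of the motifs.

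Markers of other tissue next to the striatum also differed between the mice. Of 20 choroid plexus genes, 2 passed the background test in every sample and 1 (Col8a1) in none, and their summed signal ran from 11.42 to 17.53 log2 units in wildtype and from 13.13 to 17.35 in heterozygous mice. Ttr, the transthyretin that choroid plexus secretes, read 6.65, 9.97, 15.26 and 17.36 in W1 to W4 and 12.42, 12.19, 17.21 and 14.65 in H1 to H4. The summed signal of the 10 motile cilia probes ran from 10.75 to 12.97 and from 11.41 to 11.60. W1 was thus lowest and W4 highest for both, but H3 was high for choroid plexus, at 1.40 above its dye's mean by the list's median, and at 0.04 for the motile cilia probes. Choroid plexus genes had a median r of 0.67 with Foxj1.

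Neuron lists placed the same mice apart. Cortical excitatory neuron genes were highest in W1, at a median of 1.16 above its dye's mean, and their summed signal ran from 12.41 to 13.89 in wildtype and from 12.09 to 12.67 in heterozygous mice, with 5 of 12 genes well above background in all 8 samples. Septal and thalamic neuron genes were highest in W4, at 1.59, with sums of 12.52 to 15.99 in wildtype and 12.49 to 15.58 in heterozygous mice. Striatal projection neuron genes were lowest in W4, at -0.56, with sums of 17.79 to 18.88 and 18.77 to 19.03, and had a median r of -0.55 with Foxj1. Blood genes were highest in W4 as well, at 2.06, with sums of 15.28 to 18.13 and 15.56 to 16.99. Astrocyte genes, with sums of 16.73 to 17.24 and 16.75 to 17.05, had a median r of 0.19. The part of any of these in the spread of the motile cilia genes was not tested.

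**Figure D5:**
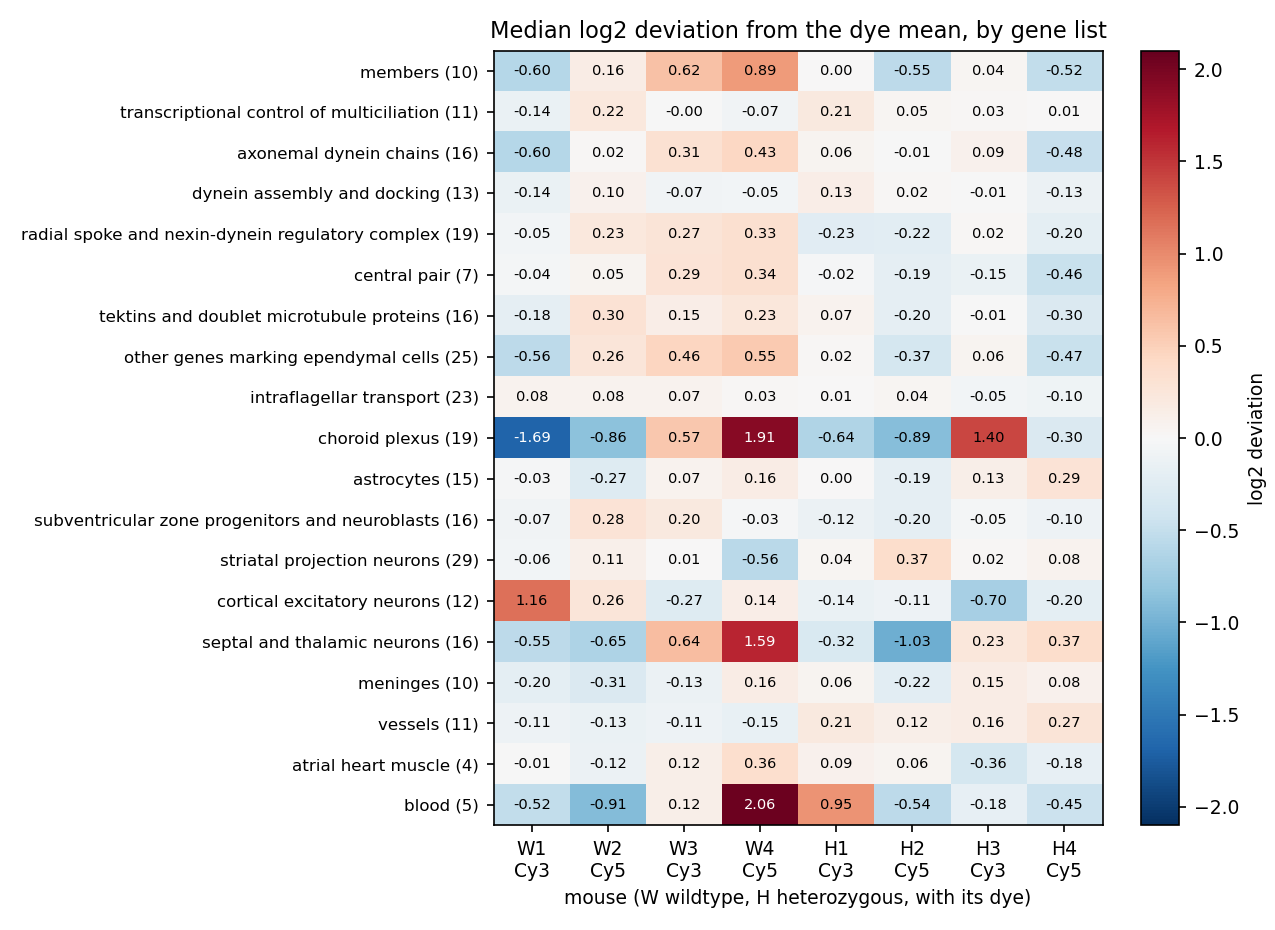
Median log2 deviation from the mean of the same dye (colour and number) for the 10 measured probes and 18 gene lists (rows, with the number of tested probes) in the 8 mice (columns, with dye). The motile cilia probes run from -0.60 in W1 to 0.89 in W4, and choroid plexus from -1.69 to 1.91 in the same mice with 1.40 in H3.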

How the data were processed

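The members and gene lists were chosen with earlier results of these data known. Per the file headers, Agilent Feature Extraction 11.0.1.1 wrote the scanner files, whose spot and local background intensities are raw. The processed intensities deposited beside them served only as an alternative. The value table the authors deposited holds a linear ratio, median signal minus median background over the column's median (100% of values equal within a relative tolerance of 1e-06, each column's median 1).

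Each sample's own channel was used. In limma 3.58.1 (R 4.3.3) background was corrected with normexp (offset 50), arrays were normalised within by loess and between by Aquantile, and the deposited intensities thus became log2 values. Control spots and flagged outliers were dropped, and repeated spots of a probe averaged. Probes well above background in at least 4 of 8 samples, with a value in all 8, were tested (18398 of 39429) with lmFit and eBayes. Dye was a covariate and array a random block (correlation 0.81), with Benjamini-Hochberg adjustment. The fit was tested on simulated data. Of the probes, 27234 were named through RefSeq accessions (GRCm38.p6), 5949 by the file and 6246 not at all. Named genes were every probe of the 10 genes, the brightest and lowest-p genes of each list, and the 10 most like Foxj1, of which 1 is not reported here. The mice are separate samples, and their number limits the precision. Leaving out W1 and W4 together was chosen after seeing the data.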

Additional observations from a re-analysis of the deposited data

Results flagged for a closer look

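Of 34 sets of 4 mice (each probe in each genotype, the 2 BC061194 probes included), 1 held a mouse far from the others. Mlf1 read 6.308 log2 units in W1, where the other wildtype mice lay between 7.14 and 7.31, and the gap was 0.83 of the whole range, just past the critical value of 0.829. Chance alone flags about 1 in 20 such sets. The Mlf1 probe was not well above background in W1, H1 and H3.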

How the results depend on the processing

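In 24 alternatives, the 10 motile cilia probes gave no adjusted p under 0.05, the lowest being 0.11 without the array of W1 and W2. Their median difference (-0.45) lay between -0.76 and -0.27 with 1 mouse left out. It was -0.98 without the array of W1 and W2 and turned to 0.04 without that of W3 and W4. With the scanner's processed signals it was -1.11, but the median of all tested probes was then -0.53. With the smooth trend over each array removed, the 10 differences lay between -0.66 and -0.19. Same-numbered mice shared a number and a dye. The correlation of their deviations was 0.07 or 0.17, which cannot show whether they were paired in another way. With the replicate block the median was -0.45 and 0 probes on the array were called, as in the fit without it. Over all probes, 538 were called with no array block, 1 with the deposited value table, and 23, 14 and 5 without the array of W1 and W2, of W3 and W4 and of H3 and H4, none of them a motile cilia probe. With 1 mouse left out 0 or 1 were called (1 without W4), and 1 without W1 and W4 together. By single probes, Rsph1, Hydin and Dnah11 kept a difference below 0 in every alternative that could give one, but without the array of W3 and W4 it was only -0.0012 for Rsph1 A_51_P373901 and -0.07 for Dnah11, whereas Mlf1 turned sign in 10 of 23 and the second Tekt1 probe in 6 of 22. The cause of these shifts was not tested. Probes with a signal near background, such as those of Rfx3 and Dnah5, give only a bound.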
